A study of Mus musculus with 24 samples.

Results

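Luminal Sca1-negative cells were compared with basal GFP-positive cells of the control mouse mammary gland, 3 arrays against 3, across 19937 genes. These are 6 of the 24 arrays of a study of 8 sorted mammary populations, each with 3 arrays, from mice with and without a PIK3CA H1047R transgene. All mice carried Lgr5-creERT2, a tamoxifen-inducible Cre recombinase driven from Lgr5, on a mixed FVB and C57BL6 background, and were sampled 4 weeks after tamoxifen. Control mice lacked the PIK3CA H1047R transgene. The labels call the tissue preneoplastic mammary gland for these mice too.

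The luminal Sca1-negative cells were CD45-negative, CD24 high, Sca1-negative and GFP-negative. The basal GFP-positive cells were CD45-negative, CD24 low, Sca1-negative and GFP-positive, with GFP in control mice marking cells that express Lgr5. GFP state and lineage therefore differ together between these populations. A second control basal population was GFP-negative like the luminal cells, so that its comparison with the same luminal arrays, given beside the first, holds GFP state fixed. The basal populations differed from each other in 1.25% of genes. Each array was hybridised with amplified RNA of 250 cells, sorted from glands pooled from 2 to 3 mice with synchronised estrus, in 3 independent sortings. In such bulk samples fewer cells of a type and less RNA per cell cannot be told apart.

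The mammary duct is a bilayer. Its outer, basal layer is made mostly of myoepithelial cells, which anchor to the basement membrane and contract under oxytocin to eject milk. The inner, luminal layer contains hormone-sensing cells with oestrogen and progesterone receptors, and progenitors of the milk-secreting alveolar cells, which are marked by Kit and Elf5 and are mainly found in the Sca1-negative fraction. Lgr5 is a receptor for R-spondins, which potentiate Wnt signalling, and is expressed in basal cells of the gland.

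Values are deposited log2 expression values, so that a difference of 1 is a 2-fold change, and a gene was called where its adjusted p was under 0.05 in the limma fit across all 19937 genes. Differences are luminal Sca1-negative minus basal GFP-positive and carry the standard error of that fit. Arrays of the luminal Sca1-negative group correlated with each other across genes at 0.959 to 0.966, and those of the basal GFP-positive group at 0.934 to 0.941. Between the groups the correlation was 0.872 to 0.899. As a group, basal GFP-positive arrays had the narrowest range of signal. The standard deviation of gene values averaged 1.71 on them, against 1.77 to 1.86 in the other 7 groups, and genes below the median level averaged 4.07, against 3.94 to 4.02. Replicate 2 of the group lay within the range of other arrays on both measures. Counts of the main gene lists are therefore also given against the basal GFP-negative arrays, where 9.83% of genes were called in either direction. Both comparisons share the luminal arrays, so the second is no independent evidence.

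The sorted populations carried the markers of their labels. Krt8, a keratin of simple epithelia, had log2 values of 12.44, 12.67 and 12.57 in the luminal Sca1-negative arrays, against 10.40, 10.67 and 10.90 in the basal GFP-positive arrays. Its partner Krt18 had 12.67, 12.61 and 12.61 in the luminal Sca1-negative arrays, against 9.82, 10.31 and 8.77 in the basal GFP-positive arrays. In both genes every luminal array lay above every basal array, by 1.91 ± 0.21 (SE, adjusted p = 5.78e-06) for Krt8 and 2.99 ± 0.34 (adjusted p = 9.75e-06) for Krt18. Krt5, a keratin of the basal layer, gave 4.93, 5.24 and 5.47 in the luminal Sca1-negative arrays, against 11.77, 11.56 and 11.46 in the basal GFP-positive arrays. Its partner Krt14 gave 6.83, 6.12 and 6.55 in the luminal Sca1-negative arrays, against 11.52, 11.58 and 11.66 in the basal GFP-positive arrays. Both basal keratins were far lower in luminal cells, Krt5 at a log2 difference of -6.38 ± 0.43 (adjusted p = 1.12e-08) and Krt14 at -5.09 ± 0.42 (adjusted p = 1.44e-07). Trp63, the transcription factor p63 of basal epithelium, gave 5.61, 5.27 and 5.24 in the luminal Sca1-negative arrays, against 9.93, 9.92 and 9.15 in the basal GFP-positive arrays, a difference of -4.29 ± 0.39 (adjusted p = 5.08e-07).

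**Figure D1:**
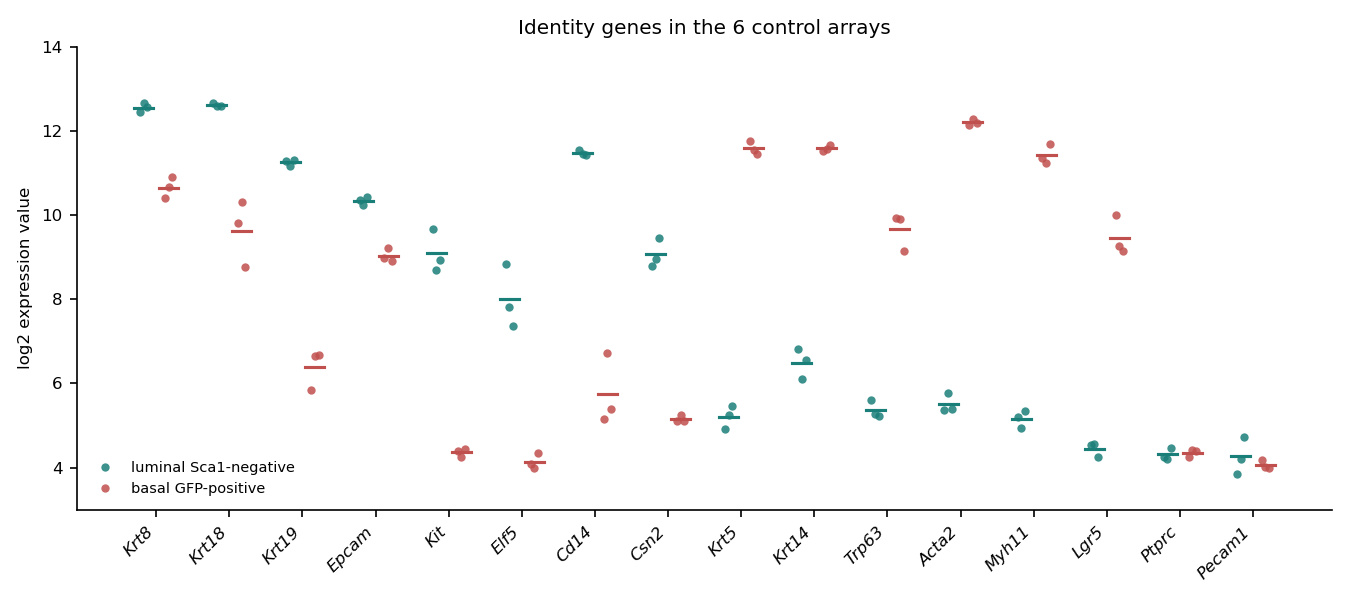
Log2 expression values of 16 lineage and other cell type genes in the 3 luminal Sca1-negative arrays (left of each pair) and the 3 basal GFP-positive arrays (right), control mice; points are arrays and bars are means. Luminal and progenitor genes are separated upward, basal, contractile genes and Lgr5 downward, and Ptprc and Pecam1 stay near the bottom in both.

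Genes tied to the sort are no findings. Cd24a, which encodes the CD24 antigen of the gate, had 11.23, 11.38 and 11.54 in the luminal Sca1-negative arrays, against 10.22, 11.28 and 10.52 in the basal GFP-positive arrays, and the groups overlapped. Its difference was 0.71 ± 0.21 (adjusted p = 0.0370), and 0.60 (adjusted p = 0.0828) against basal GFP-negative cells. The call was also lost without basal replicate 1 or 3 or luminal replicate 2 or 3 (adjusted p from 0.0913 to 0.186). Ptprc, which encodes the excluded CD45 antigen, stood at 4.25, 4.21 and 4.47 in the luminal Sca1-negative arrays, against 4.25, 4.42 and 4.39 in the basal GFP-positive arrays, with no detectable difference. Ly6a, which encodes Sca1, could not be read from a probe set of a single symbol. Pik3ca, the kinase gene whose mutant form the transgene carries, had 7.18, 7.02 and 6.80 in the luminal Sca1-negative arrays, against 6.86, 7.29 and 6.78 in the basal GFP-positive arrays. The Pik3ca groups overlapped, with a difference of 0.02 ± 0.21 (adjusted p = 0.968).

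Leukocyte, endothelial, adipocyte and erythroid markers were mostly dim on these arrays. A gene was counted as dim where its mean lay under 4.66, the median over all genes. Of 19 leukocyte markers measured, 17 were dim in both populations and 0 were called, with list means per array of 4.18 to 4.26 in luminal cells, against 4.21 to 4.31 in basal cells. The 13 endothelial markers had list means of 4.30 to 4.37 in luminal cells, against 4.19 to 4.37 in basal cells. None of them was called by limma, nor were any of the 8 adipocyte or 2 erythroid markers. At an unadjusted p under 0.05 stood 2 leukocyte, 0 endothelial, 1 adipocyte and 0 erythroid markers.

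Fibroblast markers gave 1 higher and 4 lower calls of 14, where 5.30% of all genes were higher and 4.70% lower. With the basal GFP-negative arrays 0 were higher and 2 lower, and 6 of the 14 were dim in both populations. Their list means were 4.87 to 4.88 in luminal cells, against 4.73 to 5.12 in basal GFP-positive cells. The gene that was higher was Dcn, which encodes the matrix proteoglycan decorin, with 9.88, 10.27 and 9.85 in the luminal Sca1-negative arrays, against 6.76, 6.94 and 6.71 in the basal GFP-positive arrays. Its difference was 3.20 ± 0.69 (adjusted p = 0.00475), but against basal GFP-negative cells, which had a mean of 9.32 ± 1.37 (SD, n = 3), it was 0.68 (adjusted p = 0.661). Col6a1, a collagen VI chain, was lower at -1.82 ± 0.28 (adjusted p = 0.000190), with -1.02 (adjusted p = 0.0239) against basal GFP-negative cells. The other lower calls, Col1a2, Col5a1 and Pi16, were lost there. Some markers of other cell types were bright, such as Anpep on the pericyte list with 10.32, 9.38 and 10.06 in the luminal Sca1-negative arrays, against 8.43, 7.37 and 7.96 in the basal GFP-positive arrays. Among 9 pericyte markers Anpep and Notch3 were higher and Mcam was lower, and among 9 Schwann and neural markers Mbp was higher and Sox10 lower, Sox10 not without luminal replicate 2 (adjusted p = 0.0557). Whether cells of these types contributed to the differences below was not tested.

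Across all genes, 1056 (5.30% of 19937) were higher and 938 (4.70%) were lower in luminal Sca1-negative than in basal GFP-positive cells. The median difference of all genes was -0.04. Called genes differed by a median of 1.34 upward and -1.25 downward, and 755 higher (3.79%) and 593 lower (2.97%) genes differed at least 2-fold. In 994 of the higher genes all 3 luminal arrays lay above all 3 basal arrays, and in 895 of the lower genes all lay below. The same separation was seen upward in 2035 (10.2%) and downward in 2687 (13.5%) of all genes. Without basal GFP-positive replicate 2 the counts were 1238 higher and 1522 lower, and without replicate 1 they were 791 and 790. A test against a 2-fold null on all arrays gave 148 higher and 181 lower. Which direction had more calls therefore depended on the setting. A fit of the 6 arrays alone gave 386 higher and 379 lower. Against basal GFP-negative cells 983 genes (4.93%) were higher and 977 (4.90%) lower.

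Small downward differences among dim genes made up part of the lower calls. Of the 938 lower genes, 108 were dim in both populations, with a median difference of -0.32, against 17 of the 1056 higher genes. The basal GFP-positive arrays had the highest values of dim genes, as given above, and the part of this in those calls was not tested. A further limit is that 160 higher genes were dim in basal cells and 325 lower genes (those 108 included) dim in luminal cells, so that folds of such genes are ratios of array signals near the lower end of the scale.

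**Figure D2:**
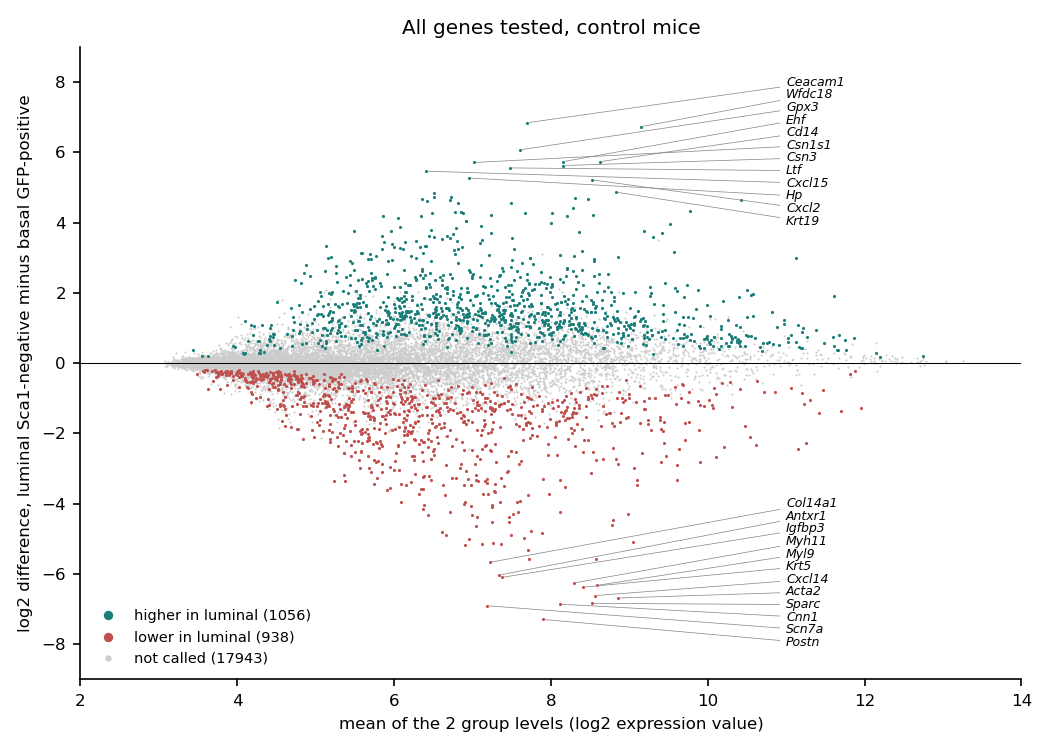
Log2 difference (luminal Sca1-negative minus basal GFP-positive) of 19937 genes against the mean of the 2 group levels, control mice; coloured points are the 1056 higher and 938 lower genes and grey points were not called. The 12 largest differences each way among named genes are labelled, from Krt19 at 4.87 to Ceacam1 at 6.84 and from Col14a1 at -5.67 to Postn at -7.30.

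Among the largest upward differences were genes of secretion, defence and epithelial identity. Ceacam1, a cell adhesion molecule of the carcinoembryonic antigen family, had 10.87, 11.30 and 11.20 in the luminal Sca1-negative arrays, against 4.26, 4.35 and 4.23 in the basal GFP-positive arrays. The basal values were dim and close together, and the difference was 6.84 ± 0.55 (adjusted p = 1.15e-07), or 114.9-fold in array signal. Wfdc18, a small secreted protein with a whey acidic protein domain, had 12.61, 12.48 and 12.46 in the luminal Sca1-negative arrays, against 4.80, 7.69 and 4.88 in the basal GFP-positive arrays. One basal array, replicate 2, lay well above the other two. The Wfdc18 difference was 6.73 ± 0.79 (adjusted p = 1.28e-05), and 7.68 without that array. Gpx3, a secreted glutathione peroxidase, had 10.83, 9.92 and 11.18 in the luminal Sca1-negative arrays, against 3.62, 3.63 and 6.46 in the basal GFP-positive arrays, with the raised basal value this time in replicate 3. Its difference was 6.07 ± 0.75 (adjusted p = 2.08e-05), and 7.02 without that array. Cxcl15, a chemokine, and Hp, the haemoglobin-binding protein haptoglobin, were higher by 5.47 ± 0.90 (adjusted p = 0.000449) and 5.27 ± 0.47 (adjusted p = 4.56e-07). The control luminal Sca1-positive arrays had 11.57, 11.10 and 11.68 for Gpx3, 10.41, 10.18 and 10.85 for Cxcl15, and 9.65, 9.33 and 9.86 for Wfdc18.

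The basal GFP-positive replicate 2 array was the highest of its group in several other luminal genes. Csn3 stood at 7.07 on it, against 3.99 and 4.98 on the other basal arrays. Cd14 stood at 6.71 there, against 5.17 and 5.38, and Cldn4 at 7.59, against 4.86 and 5.96. All luminal arrays still lay above it in these genes. Differences without that array were 6.49 for Csn3, 6.21 for Cd14 and 5.40 for Cldn4, each larger than with it.

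Among the largest downward differences were matrix, contractile and basal genes. Postn, the matricellular protein periostin, had 4.15, 3.98 and 4.63 in the luminal Sca1-negative arrays, against 11.35, 11.69 and 11.62 in the basal GFP-positive arrays, a difference of -7.30 ± 0.46 (adjusted p = 3.94e-09) and 157.8-fold in array signal. Scn7a, of the voltage-gated sodium channel family, had 3.69, 3.70 and 3.80 in the luminal Sca1-negative arrays, against 10.70, 10.50 and 10.73 in the basal GFP-positive arrays. It was dim in every luminal array and differed by -6.91 ± 0.20 (adjusted p = 1.42e-13). Sparc, a collagen-binding matrix protein, differed by -6.84 ± 0.51 (adjusted p = 4.59e-08), Cxcl14, an epithelial chemokine, by -6.62 ± 0.21 (adjusted p = 4.32e-13), and Antxr1, a cell surface receptor that binds collagen, by -6.04 ± 0.34 (adjusted p = 7.37e-10). Col14a1, a fibril-associated collagen, had 4.32, 4.43 and 4.41 in the luminal Sca1-negative arrays, against 10.22, 9.99 and 9.98 in the basal GFP-positive arrays. It had the smallest standard error of these genes, with a difference of -5.67 ± 0.12 (adjusted p = 7.68e-16). Bgn, the proteoglycan biglycan, was lower at -5.58 ± 0.29 (adjusted p = 2.37e-10). Differences from basal GFP-negative cells were close to these, with Postn at -7.50, Scn7a at -6.84 and Col14a1 at -5.60.

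**Figure D3:**
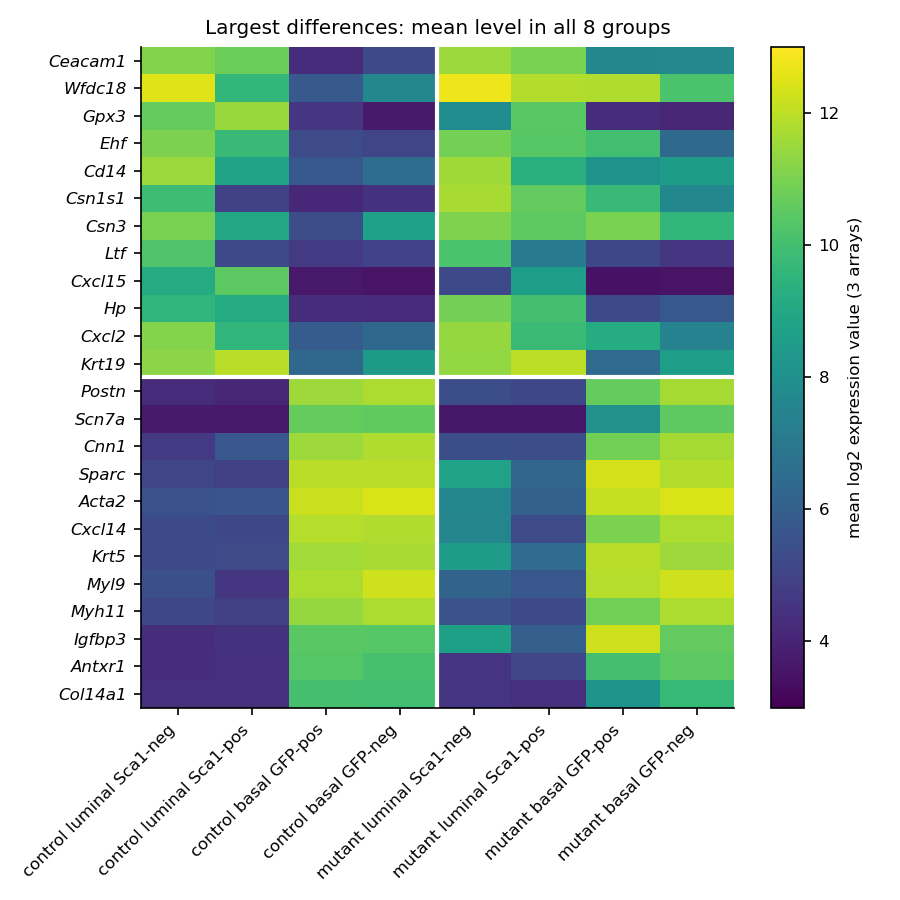
Mean log2 expression value (3 arrays) of the 12 genes with the largest upward (above the white line) and downward differences in all 8 groups, control mice left and mutant mice right. In the control groups the genes of the upper block are brighter in luminal Sca1-negative than in basal cells, and those of the lower block the reverse. Csn1s1 and Ltf are bright in the control Sca1-negative luminal group and much lower in the control Sca1-positive one. Gpx3 and Cxcl15 are brighter in the control Sca1-positive than in the control Sca1-negative luminal group.

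Of 25 basal identity genes measured, 22 were lower in luminal Sca1-negative cells and 0 were higher, with a median difference of -3.48. Across all genes 4.70% were lower and the median was -0.04. This and the other gene lists were chosen with earlier results of these data known, so their counts are descriptions without a test. In all 25 the luminal arrays lay below the basal arrays. Krt17, another basal keratin, had 5.09, 5.02 and 4.25 in the luminal Sca1-negative arrays, against 10.05, 9.95 and 9.84 in the basal GFP-positive arrays. Snai2, the transcription factor Slug, had 5.38, 5.13 and 5.09 in the luminal Sca1-negative arrays, against 9.42, 9.75 and 8.72 in the basal GFP-positive arrays, and Vim, the intermediate filament vimentin, 6.66, 6.27 and 6.72 in the luminal Sca1-negative arrays, against 11.07, 10.99 and 11.01 in the basal GFP-positive arrays. These genes were all separated between the groups, by -5.16 ± 0.33 (adjusted p = 6.27e-09), -4.09 ± 0.33 (adjusted p = 9.31e-08) and -4.47 ± 0.33 (adjusted p = 4.35e-08). Il17b, a cytokine of the IL-17 family, was lower at -3.95 ± 0.23 (adjusted p = 1.42e-09). With basal GFP-negative cells as comparator, 20 of the 25 were lower and 0 higher, with a median of -3.87.

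The contractile programme of myoepithelial cells was lower in 20 of 28 genes and higher in 1, with a median difference of -2.37. The shares of all genes were 4.70% lower and 5.30% higher. Acta2, smooth muscle actin, had 5.37, 5.77 and 5.40 in the luminal Sca1-negative arrays, against 12.13, 12.28 and 12.20 in the basal GFP-positive arrays. Myh11, smooth muscle myosin heavy chain, had 5.21, 4.94 and 5.35 in the luminal Sca1-negative arrays, against 11.35, 11.25 and 11.69 in the basal GFP-positive arrays. Both were separated without overlap, by -6.69 ± 0.62 (adjusted p = 6.91e-07) and -6.26 ± 0.24 (adjusted p = 6.65e-12). Cnn1, the actin-binding calponin, differed by -6.87 ± 0.57 (adjusted p = 1.81e-07), and Tagln, transgelin, by -5.32 ± 0.24 (adjusted p = 4.63e-11). Oxtr, the oxytocin receptor through which suckling triggers contraction, had 5.15, 4.60 and 4.32 in the luminal Sca1-negative arrays, against 10.30, 9.54 and 9.63 in the basal GFP-positive arrays, a difference of -5.13 ± 0.31 (adjusted p = 2.59e-09). Myl9, the regulatory myosin light chain, had 6.61, 4.96 and 4.72 in the luminal Sca1-negative arrays, against 11.80, 11.57 and 11.90 in the basal GFP-positive arrays. Luminal replicate 1 was the highest of its group in Myl9, and the difference of -6.33 ± 0.62 (adjusted p = 1.23e-06) was -6.92 without it. Actg2, smooth muscle gamma actin, was lower at -3.28 ± 0.25 (adjusted p = 6.12e-08) and Mylk, the kinase of myosin light chain, at -2.47 ± 0.27 (adjusted p = 5.07e-06).

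The member that was higher was Srf, serum response factor, which binds the CArG box in promoters of contractile genes. Srf had 9.25, 8.51 and 8.78 in the luminal Sca1-negative arrays, against 8.02, 7.47 and 8.23 in the basal GFP-positive arrays, a difference of 0.94 ± 0.28 (adjusted p = 0.0386). That call was lost without basal replicate 1 (adjusted p = 0.0683) or 2 (0.124) and without luminal replicate 1 (0.154) or 3 (0.0801), and the difference was 0.31 (adjusted p = 0.618) against basal GFP-negative cells. Relative to those cells 21 of the 28 genes were lower and 1 was higher.

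RefSeq promoters (GRCm38.p6) were searched on both strands for the CArG box in the 250 bases before each start, because members of this list moved together. The box reads the same on both strands. Of 24 list genes with a window 3 held it, as did 1.47% of 32851 windows of all genes. The windows of both lower genes that held it, Myl9 on chromosome 2, plus strand (chr2:156775214-156775463), and Cnn2, a calponin, on chromosome 10, plus strand (chr10:79988350-79988599), are printed 5′ to 3′ with the box in capitals.
Myl9: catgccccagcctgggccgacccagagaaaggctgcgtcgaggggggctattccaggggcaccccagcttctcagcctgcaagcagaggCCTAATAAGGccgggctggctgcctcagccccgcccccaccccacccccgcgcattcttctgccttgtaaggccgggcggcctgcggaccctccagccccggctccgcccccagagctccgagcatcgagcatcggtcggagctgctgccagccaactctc
Cnn2: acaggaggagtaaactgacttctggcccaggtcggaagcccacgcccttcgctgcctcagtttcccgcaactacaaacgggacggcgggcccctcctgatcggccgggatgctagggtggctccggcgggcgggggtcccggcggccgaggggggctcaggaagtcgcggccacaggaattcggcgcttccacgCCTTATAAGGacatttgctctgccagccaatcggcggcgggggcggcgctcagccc
The box begins 161 bases before the start of Myl9 and 56 before that of Cnn2, and the third gene with one is Srf. A match describes these letters and is not a shown binding site.

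Adhesion to the basement membrane was lower in 17 of 32 genes and higher in 1, with a median of -0.82. Across all genes 4.70% were lower and 5.30% higher. Among the laminins, the main network proteins of that membrane, Lama3 had 6.10, 5.41 and 5.41 in the luminal Sca1-negative arrays, against 9.52, 9.68 and 9.52 in the basal GFP-positive arrays. Col17a1, the hemidesmosome collagen, had 5.43, 5.37 and 5.33 in the luminal Sca1-negative arrays, against 9.21, 9.65 and 9.09 in the basal GFP-positive arrays. The luminal arrays lay below the basal ones in both, by -3.93 ± 0.22 (adjusted p = 7.88e-10) and -3.94 ± 0.18 (adjusted p = 4.44e-11). Lamb1 and Lama1, further laminin chains, were lower at -2.66 ± 0.20 (adjusted p = 5.45e-08) and -2.29 ± 0.17 (adjusted p = 3.64e-08), and Lama1 was at -4.04 against basal GFP-negative cells. Among their integrin receptors, Itga6, an alpha chain used to sort basal cells, was lower at -1.68 ± 0.24 (adjusted p = 0.000101). Itgb1, the common beta chain, had 9.45, 9.90 and 9.55 in the luminal Sca1-negative arrays, against 10.01, 10.11 and 9.98 in the basal GFP-positive arrays, which did not overlap but gave an adjusted p of 0.0642 at a difference of -0.40 ± 0.13, with -0.52 (adjusted p = 0.0160) against basal GFP-negative cells. The exception was Itgb6, an epithelial integrin chain, higher by 1.66 ± 0.31 (adjusted p = 0.00126).

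Among mesenchymal transition factors 5 of 17 were lower and 0 higher, where 4.70% of all genes were lower and 5.30% higher. Besides Vim and Snai2 these included Mmp2, a matrix metalloproteinase, with 4.37, 4.09 and 4.50 in the luminal Sca1-negative arrays, against 9.52, 9.27 and 9.71 in the basal GFP-positive arrays, a difference of -5.18 ± 0.28 (adjusted p = 3.45e-10). Cdh2, N-cadherin, was lower at -1.47 ± 0.25 (adjusted p = 0.000550), with -0.69 (adjusted p = 0.0954) against basal GFP-negative cells.

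**Figure D4:**
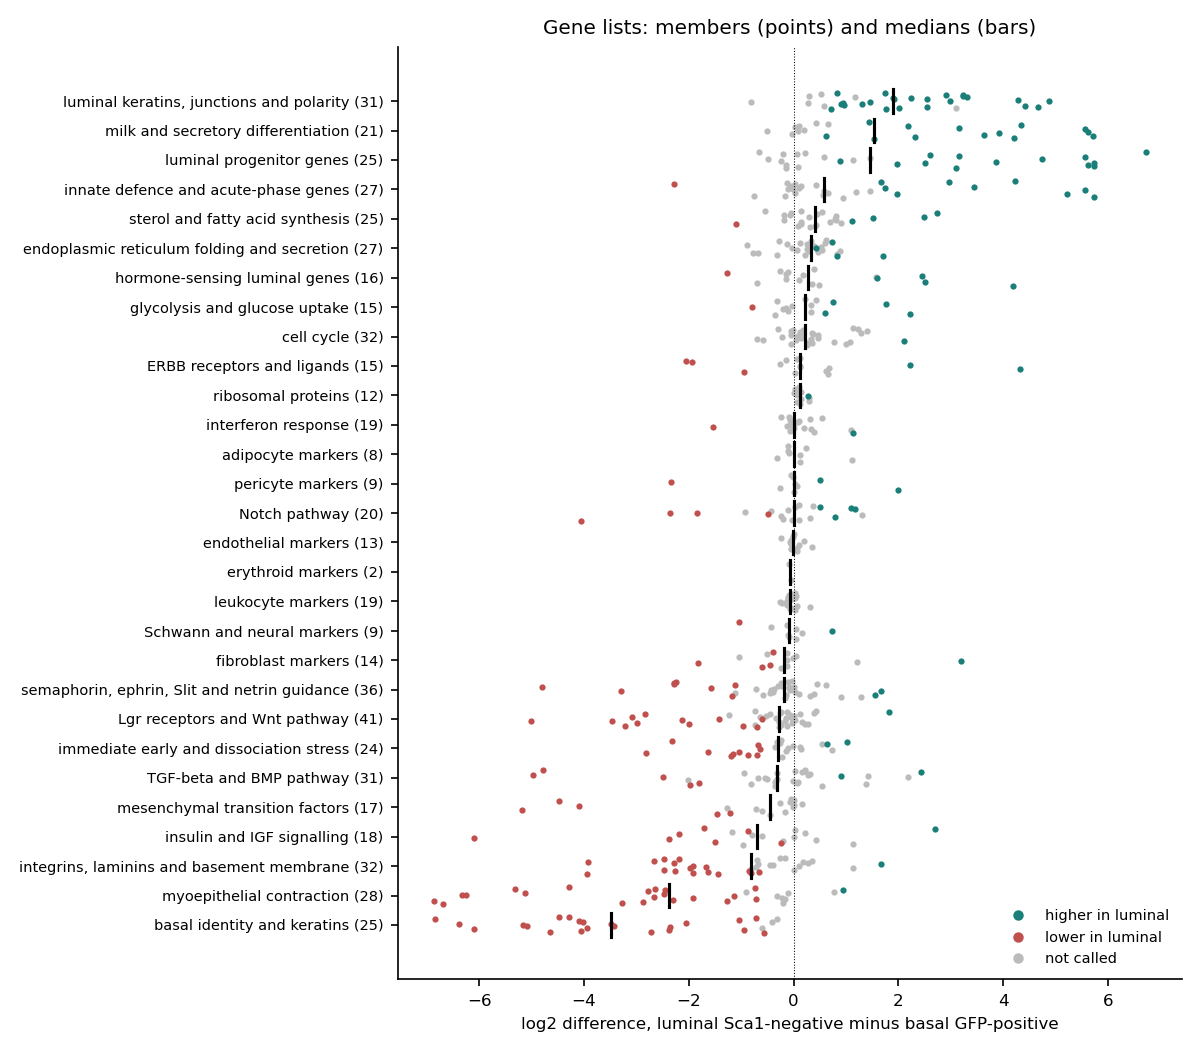
Log2 difference (luminal Sca1-negative minus basal GFP-positive) of every measured member of 29 gene lists, with the number measured in parentheses; points are genes, coloured where called, and black bars are list medians. The medians run from -3.48 for basal identity genes to 1.90 for luminal keratins and junctions, with leukocyte and endothelial markers near 0.

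Leaving out Cd24a, whose antigen is part of the gate, luminal keratins, junctions and polarity genes were higher in 23 of 30 and lower in 0, with a median of 1.90, where 5.30% of all genes were higher. Krt19, a keratin of luminal cells, had 11.29, 11.18 and 11.32 in the luminal Sca1-negative arrays, against 5.85, 6.66 and 6.68 in the basal GFP-positive arrays. Its difference was 4.87 ± 0.36 (adjusted p = 3.36e-08), and 2.79 against basal GFP-negative cells, where its mean was 8.47 ± 0.37 (SD, n = 3). Among tight junction genes, Cldn7, claudin 7, had 10.23, 10.78 and 10.45 in the luminal Sca1-negative arrays, against 5.23, 7.19 and 5.79 in the basal GFP-positive arrays. Ocln, occludin, had 8.25, 8.89 and 8.43 in the luminal Sca1-negative arrays, against 5.51, 4.93 and 5.18 in the basal GFP-positive arrays. Cldn4, Cldn7 and Ocln were higher by 4.67 ± 0.55 (adjusted p = 1.27e-05), 4.42 ± 0.50 (adjusted p = 7.69e-06) and 3.32 ± 0.33 (adjusted p = 1.50e-06). The adhesion genes Epcam and Cdh1, E-cadherin, are expressed in both layers and were bright in every array. Epcam was higher by 1.30 ± 0.12 (adjusted p = 6.91e-07) and Cdh1 by 1.76 ± 0.17 (adjusted p = 1.33e-06). Muc1, the apical mucin, was higher by 2.23 ± 0.41 (adjusted p = 0.00136). In the comparison with basal GFP-negative cells 23 of the 30 genes were higher and 0 lower.

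Luminal progenitor genes were higher in 13 of 25 and lower in 0, with a median of 1.46, where 5.30% of all genes were higher. Kit, the stem cell factor receptor, had 9.66, 8.71 and 8.93 in the luminal Sca1-negative arrays, against 4.40, 4.24 and 4.45 in the basal GFP-positive arrays. Elf5, the transcription factor of alveolar fate, had 8.84, 7.82 and 7.37 in the luminal Sca1-negative arrays, against 4.09, 3.98 and 4.35 in the basal GFP-positive arrays. The luminal values of both lay above the dim basal values in every array, by 4.73 ± 0.37 (adjusted p = 7.19e-08) and 3.87 ± 0.77 (adjusted p = 0.00248). In control Sca1-positive luminal cells 2.08% of genes were higher and 1.61% lower than in the Sca1-negative ones. Kit and Elf5 were lower in the Sca1-positive arrays, with means of 4.47 ± 0.06 and 4.77 ± 0.10 (SD, n = 3). Ehf, an epithelial transcription factor of the same ETS family, had 11.14, 10.92 and 11.02 in the luminal Sca1-negative arrays, against 5.47, 5.58 and 4.81 in the basal GFP-positive arrays, a difference of 5.74 ± 0.30 (adjusted p = 2.56e-10). Aldh1a3, an enzyme of retinoic acid synthesis, was higher by 3.09 ± 0.31 (adjusted p = 2.01e-06), and Cd14, the co-receptor for bacterial lipopolysaccharide, by 5.73 ± 0.75 (adjusted p = 3.78e-05). Not every member was as low as Kit in the control luminal Sca1-positive arrays, where Ehf had 9.32, 10.22 and 9.80 and Cd14 8.08, 9.07 and 9.10. The basal GFP-negative comparator gave 15 higher and 0 lower of the 25.

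Milk and secretory genes were higher in 13 of 21 and lower in 0, with a median of 1.54, where 5.30% of all genes were higher. Csn1s1, an alpha casein, had 9.49, 9.59 and 10.55 in the luminal Sca1-negative arrays, against 3.98, 4.14 and 4.39 in the basal GFP-positive arrays. Csn2, beta casein, had 8.80, 8.96 and 9.46 in the luminal Sca1-negative arrays, against 5.10, 5.26 and 5.11 in the basal GFP-positive arrays. Both caseins were separated, by 5.71 ± 0.66 (adjusted p = 9.49e-06) and 3.91 ± 0.62 (adjusted p = 0.000285). Csn3, kappa casein, had 10.81, 11.03 and 11.07 in the luminal Sca1-negative arrays, against 3.99, 7.07 and 4.98 in the basal GFP-positive arrays, a difference of 5.63 ± 0.51 (adjusted p = 5.11e-07). Against basal GFP-negative cells, which had a Csn3 mean of 8.73 ± 0.63 (SD, n = 3), it was 2.24 (adjusted p = 0.00759). Ltf, lactoferrin, the iron-binding protein of milk, differed by 5.56 ± 0.50 (adjusted p = 5.04e-07), and Trf, transferrin, by 4.33 ± 0.55 (adjusted p = 2.67e-05). Btn1a1, butyrophilin of the milk fat globule, differed by 4.20 ± 0.32 (adjusted p = 4.94e-08), Mfge8, another globule protein, by 3.16 ± 0.38 (adjusted p = 1.54e-05), and Plin2, which coats lipid droplets, by 2.19 ± 0.51 (adjusted p = 0.00840). Mfge8 was at 1.64 (adjusted p = 0.00822) against basal GFP-negative cells. Not all milk genes were called. Wap, whey acidic protein, had 4.80, 6.72 and 4.45 in the luminal Sca1-negative arrays, against 4.56, 4.51 and 4.95 in the basal GFP-positive arrays, a difference of 0.65 ± 0.99 (adjusted p = 0.759), and Glycam1, a mucin of milk, of 0.07 ± 1.11 (adjusted p = 0.981). Set against basal GFP-negative cells, 12 of the 21 were higher and 0 lower.

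Promoters of these genes were searched likewise for TTCNNNGAA, the site type of STAT5, which acts in casein genes. This pattern also reads alike on both strands, so both were covered. It was not found together with the CArG box in any window printed. Of 15 milk genes with a window 3 held it, as did 7.02% of the 32851 windows. The windows of both higher genes with a match, the caseins Csn1s1 on chromosome 5, plus strand (chr5:87665958-87666207), and Csn2 on chromosome 5, minus strand (chr5:87699426-87699675), are printed 5′ to 3′ with the match in capitals.
Csn1s1: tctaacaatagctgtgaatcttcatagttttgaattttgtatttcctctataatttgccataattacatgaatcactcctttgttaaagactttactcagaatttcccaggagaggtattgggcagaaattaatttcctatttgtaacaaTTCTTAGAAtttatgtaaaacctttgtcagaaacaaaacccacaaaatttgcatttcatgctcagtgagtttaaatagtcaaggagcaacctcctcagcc
Csn2: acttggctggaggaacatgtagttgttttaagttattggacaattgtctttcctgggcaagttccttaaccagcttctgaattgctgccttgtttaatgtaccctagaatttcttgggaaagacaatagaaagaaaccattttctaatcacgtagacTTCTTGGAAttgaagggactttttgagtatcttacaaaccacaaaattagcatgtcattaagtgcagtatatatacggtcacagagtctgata
The match begins 100 bases before the start of Csn1s1 and 93 before that of Csn2. The third gene with a match was Glycam1, which was not called. The matches are descriptions of sequence and show no binding.

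Hormone-sensing luminal genes were mixed, with 4 of 16 higher and 1 lower and a median of 0.27. Among all genes 5.30% were higher and 4.70% lower. Cited1, a transcriptional coregulator, had 10.43, 10.07 and 10.39 in the luminal Sca1-negative arrays, against 6.23, 6.05 and 6.09 in the basal GFP-positive arrays, a difference of 4.18 ± 0.51 (adjusted p = 1.98e-05). Foxa1, the pioneer factor of oestrogen receptor, had 7.64, 6.38 and 8.75 in the luminal Sca1-negative arrays, against 4.78, 5.05 and 5.41 in the basal GFP-positive arrays, a difference of 2.51 ± 0.46 (adjusted p = 0.00116) with a wide spread among luminal arrays. In the limma fit of the 6 compared arrays alone the Foxa1 call was lost (adjusted p = 0.106). Prom1, a membrane glycoprotein of hormone-sensing cells, was higher by 2.44 ± 0.34 (adjusted p = 8.28e-05). The hormone receptors themselves were not called. Esr1, oestrogen receptor alpha, had 6.37, 5.13 and 5.68 in the luminal Sca1-negative arrays, against 5.60, 5.20 and 5.30 in the basal GFP-positive arrays, and Pgr, progesterone receptor, 7.49, 7.43 and 7.92 in the luminal Sca1-negative arrays, against 5.60, 6.61 and 5.93 in the basal GFP-positive arrays. Esr1 overlapped between the groups, while Pgr did not and had a difference of 1.57 ± 0.57 (adjusted p = 0.0944). In the control luminal Sca1-positive arrays the means were 10.01 ± 0.24 for Foxa1, 7.33 ± 0.65 for Esr1 and 9.44 ± 0.13 for Pgr (SD, n = 3). Gata3, a luminal transcription factor, had 8.81, 8.42 and 9.08 in the luminal Sca1-negative arrays, against 8.96, 7.94 and 9.07 in the basal GFP-positive arrays, with no detectable difference. Tbx3, a T-box factor, was lower at -1.27 ± 0.33 (adjusted p = 0.0186), with -0.04 (adjusted p = 0.975) against basal GFP-negative cells. It was lost without basal replicate 1 or luminal replicate 2 or 3 (adjusted p from 0.0653 to 0.105).

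Innate defence and acute-phase genes were higher in 9 of 27 and lower in 1, with a median of 0.58. The shares of all genes were 5.30% higher and 4.70% lower. Cxcl2, a chemokine for neutrophils, had 10.97, 11.34 and 11.09 in the luminal Sca1-negative arrays, against 5.89, 6.60 and 5.26 in the basal GFP-positive arrays, a difference of 5.22 ± 0.46 (adjusted p = 3.55e-07). Cxcl1, a related chemokine, was higher by 1.97 ± 0.23 (adjusted p = 1.45e-05), and Wfdc2, a secreted protease inhibitor, by 4.22 ± 0.49 (adjusted p = 1.08e-05). Tlr4, the lipopolysaccharide receptor that works with Cd14, had 6.91, 7.98 and 6.64 in the luminal Sca1-negative arrays, against 4.16, 4.32 and 4.18 in the basal GFP-positive arrays, a difference of 2.96 ± 0.43 (adjusted p = 0.000110). The opposite direction was seen for Slpi, the secretory leukocyte protease inhibitor, which was bright in both groups with 10.15, 9.98 and 10.22 in the luminal Sca1-negative arrays, against 12.49, 12.31 and 12.39 in the basal GFP-positive arrays. Slpi was lower at -2.28 ± 0.19 (adjusted p = 1.70e-07). S100a8, a calcium-binding protein abundant in neutrophils, had 7.84, 9.67 and 5.28 in the luminal Sca1-negative arrays, against 3.97, 4.31 and 4.18 in the basal GFP-positive arrays. Its luminal values spread widely, and the difference of 3.44 ± 1.07 (adjusted p = 0.0494) was 2.41 (adjusted p = 0.230) without luminal replicate 2. The call was also lost without any single basal array or luminal replicate 1 (adjusted p from 0.0693 to 0.117). The leukocyte marker list, given above, showed 0 calls, with 17 of its 19 genes dim in both populations. Whether leukocytes contributed to the S100a8 values was not tested. The cytokines Lif and Tnf were higher by 4.71 ± 0.55 (adjusted p = 1.18e-05) and 4.30 ± 0.55 (adjusted p = 3.33e-05). Compared with basal GFP-negative cells, 11 of the 27 were higher and 1 lower.

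Lgr receptors and Wnt pathway genes were lower in 12 of 41 (Lgr5 included) and higher in 1, with a median of -0.28. The shares of all genes were 4.70% lower and 5.30% higher. Lgr5 itself had 4.53, 4.56 and 4.25 in the luminal Sca1-negative arrays, against 9.996, 9.26 and 9.14 in the basal GFP-positive arrays. As GFP reports Lgr5 in these mice and was part of the gate, its difference of -5.02 ± 0.39 is given as a description only. Its mean was 8.07 ± 0.92 (SD, n = 3) in basal GFP-negative cells. Lgr4, a related R-spondin receptor, had 4.25, 5.12 and 5.28 in the luminal Sca1-negative arrays, against 7.98, 8.89 and 8.20 in the basal GFP-positive arrays. Lgr6, the third of this receptor family, had 7.28, 6.02 and 6.71 in the luminal Sca1-negative arrays, against 8.91, 8.96 and 8.50 in the basal GFP-positive arrays. Both receptors were lower without overlap, Lgr4 at -3.47 ± 0.32 (adjusted p = 5.18e-07) and Lgr6 at -2.12 ± 0.35 (adjusted p = 0.000506). Fzd7, a Wnt receptor, was lower at -2.98 ± 0.28 (adjusted p = 6.38e-07). Among secreted Wnt antagonists, Sfrp1 was lower at -3.08 ± 0.37 (adjusted p = 1.65e-05) and Wif1 at -2.83 ± 0.35 (adjusted p = 2.31e-05). Dkk3, a Dickkopf family member, was lower at -3.22 ± 0.42 (adjusted p = 3.98e-05). Axin2, a general Wnt target, had 4.87, 4.81 and 4.61 in the luminal Sca1-negative arrays, against 5.61, 5.10 and 5.70 in the basal GFP-positive arrays, a difference of -0.70 ± 0.18 (adjusted p = 0.0156). That call was lost without basal replicate 1 (adjusted p = 0.0675) or 3 (0.0798) or luminal replicate 3 (0.0727). Sfrp1 was at -2.02 (adjusted p = 0.00129) against basal GFP-negative cells. The ligand Wnt5b was the member that was higher, by 1.81 ± 0.25 (adjusted p = 8.12e-05). Procr, a surface marker of mammary stem cells in some reports, had 4.72, 4.88 and 4.74 in the luminal Sca1-negative arrays, against 4.82, 5.41 and 5.14 in the basal GFP-positive arrays, with overlapping groups. Against basal GFP-negative cells 13 of the 41 were lower and 2 higher.

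In the Notch pathway 4 of 20 genes were higher and 4 lower, where 5.30% of all genes were higher and 4.70% lower. Ligands were among the lower genes and receptors among the higher ones. Dll1, a Delta ligand, had 5.15, 4.82 and 4.91 in the luminal Sca1-negative arrays, against 8.74, 9.30 and 9.005 in the basal GFP-positive arrays, a difference of -4.06 ± 0.20 (adjusted p = 1.74e-10). The Jagged ligands Jag1 and Jag2 were lower at -1.84 ± 0.24 (adjusted p = 3.98e-05) and -2.35 ± 0.31 (adjusted p = 3.95e-05). Notch1, a receptor, had 8.25, 7.60 and 7.91 in the luminal Sca1-negative arrays, against 6.89, 6.65 and 6.74 in the basal GFP-positive arrays, a difference of 1.16 ± 0.28 (adjusted p = 0.0121). Notch2 and Notch3 were higher by 1.10 ± 0.30 (adjusted p = 0.0221) and 0.49 ± 0.13 (adjusted p = 0.0151). Each of these receptor calls was lost when certain single arrays were left out. Notch1 was lost without luminal replicate 1 (adjusted p = 0.0589). Notch2 was lost without basal replicate 3 (0.126) or luminal replicate 2 (0.106), and Notch3 without basal replicate 3 (0.0707) or luminal replicate 1 (0.0605) or 3 (0.0682). From basal GFP-negative cells Notch1 differed by 1.87 (adjusted p = 0.000184) and Notch3 by 0.79 (adjusted p = 0.000293). The Notch4 receptor and the ligands Dll3 and Dll4 were not called. Hes1, a Notch target, was called higher at 0.79 ± 0.20 (adjusted p = 0.0159) with overlapping groups, and was not called against basal GFP-negative cells, at 0.21 (adjusted p = 0.646). It was lost without basal replicate 1 or 3 or luminal replicate 1 or 2 (adjusted p from 0.0525 to 0.0958). Heyl, another Notch target, was called lower at -0.49, and was not called against basal GFP-negative cells, at -0.11. The Heyl call was also lost without basal replicate 1 or 3 or luminal replicate 3.

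Of the 15 ERBB receptors and ligands 2 were higher and 3 lower, where 5.30% of all genes were higher and 4.70% lower. Erbb3, the receptor partner of ERBB2, had 9.04, 8.69 and 9.06 in the luminal Sca1-negative arrays, against 4.79, 4.97 and 4.09 in the basal GFP-positive arrays, a difference of 4.31 ± 0.21 (adjusted p = 1.34e-10). Hbegf, a ligand of EGFR, was higher by 2.21 ± 0.54 (adjusted p = 0.0111), and by 1.48 (adjusted p = 0.0642) without basal replicate 1. Its difference from basal GFP-negative cells was 3.71 (adjusted p = 0.000110). Nrg1, a ligand of ERBB3, had 4.77, 5.27 and 5.26 in the luminal Sca1-negative arrays, against 6.57, 7.84 and 7.06 in the basal GFP-positive arrays, a difference of -2.06 ± 0.40 (adjusted p = 0.00226). Egfr, the EGF receptor, was lower at -0.95 ± 0.28 (adjusted p = 0.0360), and the call was lost without basal replicate 2 or 3 or any single luminal array (adjusted p from 0.0551 to 0.124). It was also lost against basal GFP-negative cells, at -0.56 (adjusted p = 0.264).

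Insulin and IGF signalling genes were lower in 7 of 18 and higher in 1, where 4.70% of all genes were lower and 5.30% higher. Igfbp3, an IGF-binding protein, had 4.12, 4.29 and 4.56 in the luminal Sca1-negative arrays, against 10.21, 10.53 and 10.54 in the basal GFP-positive arrays, a difference of -6.10 ± 0.73 (adjusted p = 1.41e-05). Igfbp2 was lower at -2.37 ± 0.26 (adjusted p = 6.10e-06) and at -4.35 against basal GFP-negative cells, and Igf1r, the IGF1 receptor, was lower at -1.49 ± 0.31 (adjusted p = 0.00365). The PI3-kinase subunits differed in direction. Pik3cb, a catalytic subunit, had 9.39, 9.50 and 9.76 in the luminal Sca1-negative arrays, against 6.15, 7.47 and 6.95 in the basal GFP-positive arrays, a difference of 2.69 ± 0.33 (adjusted p = 2.25e-05). Pik3r1, the regulatory subunit p85 alpha, had 9.27, 8.67 and 8.64 in the luminal Sca1-negative arrays, against 10.49, 10.76 and 10.44 in the basal GFP-positive arrays, a difference of -1.71 ± 0.25 (adjusted p = 0.000120). Against basal GFP-negative cells the differences were 2.49 for Pik3cb, -1.68 for Pik3r1 and -0.68 (adjusted p = 0.0493) for Pik3ca.

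In the TGF-beta and BMP pathway 5 of 31 genes were lower and 2 higher, where 4.70% of all genes were lower and 5.30% higher. Tgfbr3, the co-receptor betaglycan, had 5.06, 5.50 and 5.49 in the luminal Sca1-negative arrays, against 10.32, 9.93 and 10.17 in the basal GFP-positive arrays, a difference of -4.79 ± 0.22 (adjusted p = 4.63e-11). Ltbp2, of the latent TGF-beta binding protein family, was lower at -4.97 ± 0.29 (adjusted p = 1.32e-09), and Id4, a BMP target and inhibitor of helix-loop-helix factors, at -2.50 ± 0.26 (adjusted p = 2.93e-06). The ligand Tgfb2 had 7.75, 7.74 and 8.38 in the luminal Sca1-negative arrays, against 5.36, 5.75 and 5.46 in the basal GFP-positive arrays, a difference of 2.43 ± 0.37 (adjusted p = 0.000175). Among 36 guidance genes 8 were lower and 2 higher, the higher calls near the share of all genes. Sema3c, a secreted semaphorin, was lower at -4.80 ± 0.21 (adjusted p = 3.62e-11) and Slit3, a Robo ligand, at -2.24 ± 0.18 (adjusted p = 9.31e-08). The netrins went both ways, Ntn4 lower at -3.29 ± 0.41 (adjusted p = 2.25e-05) and Ntn1 higher at 1.67 ± 0.25 (adjusted p = 0.000169). Ntn4 was at -2.17 (adjusted p = 0.00154) against basal GFP-negative cells.

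Immediate early genes rise within minutes of stimulation and during tissue dissociation. They were lower in 10 of 24 and higher in 2, with a median of -0.29. Among all genes 4.70% were lower and 5.30% higher. Nr4a1, an orphan nuclear receptor, had 9.86, 9.39 and 9.11 in the luminal Sca1-negative arrays, against 12.08, 11.65 and 11.59 in the basal GFP-positive arrays, a difference of -2.32 ± 0.20 (adjusted p = 3.61e-07). Fos, a subunit of AP-1, had 10.85, 10.56 and 10.92 in the luminal Sca1-negative arrays, against 11.92, 11.67 and 11.88 in the basal GFP-positive arrays, a difference of -1.05 ± 0.17 (adjusted p = 0.000390). These genes were bright in every array of both populations. Egr2 and Egr1, zinc finger factors, were lower at -2.82 ± 0.40 (adjusted p = 0.000106) and -1.16 ± 0.17 (adjusted p = 0.000124). Klf6 and Klf2, Krüppel-like factors, were higher, by 1.01 ± 0.15 (adjusted p = 0.000221) and 0.63 ± 0.16 (adjusted p = 0.0144). Klf2 was lost without basal replicate 2 (adjusted p = 0.0594) or luminal replicate 1 (0.0562). With the basal GFP-negative comparator 7 of the 24 were lower and 3 higher, and the differences were -0.67 (adjusted p = 0.0162) for Fos, -0.69 (adjusted p = 0.0122) for Egr1 and 1.52 (adjusted p = 1.96e-06) for Klf6.

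Metabolic and cell cycle lists are given with both basal comparators, and the change between comparators was not tested. Of all genes 5.30% were higher and 4.70% lower, and 4.93% and 4.90% with the basal GFP-negative arrays. Of 15 glycolysis genes 4 were higher and 1 lower, with a median of 0.23, against 2 higher, 0 lower and a median of -0.23 with the basal GFP-negative arrays. Pgk1, phosphoglycerate kinase, had 9.29, 9.94 and 9.85 in the luminal Sca1-negative arrays, against 7.08, 8.93 and 7.77 in the basal GFP-positive arrays. Its difference was 1.76 ± 0.31 (adjusted p = 0.000893), and 0.74 (adjusted p = 0.172) against basal GFP-negative cells. Cell cycle genes were called no more often than all genes, with 1 higher of 32 and a median of 0.22, against 1 lower call and -0.40 with the basal GFP-negative arrays. Mki67, a proliferation marker, had 5.84, 6.47 and 6.71 in the luminal Sca1-negative arrays, against 4.86, 5.13 and 4.82 in the basal GFP-positive arrays, without overlap and at an adjusted p of 0.168. It had a mean of 6.79 ± 0.21 (SD, n = 3) in basal GFP-negative cells, and the difference from those was -0.45 (adjusted p = 0.765). Ccnd1, cyclin D1, was higher by 2.10 ± 0.55 (adjusted p = 0.0183), with 0.94 (adjusted p = 0.366) against basal GFP-negative cells. Its call was lost without basal replicate 3 (adjusted p = 0.109) or luminal replicate 1 (0.0824). Folding and secretion genes of the endoplasmic reticulum were higher in 4 of 27 and lower in 0, against 4 higher and 4 lower with the basal GFP-negative arrays. The part of the signal spread of the basal GFP-positive arrays in these results was not tested.

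Among 25 sterol and fatty acid genes 4 were higher and 1 lower, where 5.30% of all genes were higher and 4.70% lower. Scd1, a fatty acid desaturase, had 8.92, 8.67 and 9.0 in the luminal Sca1-negative arrays, against 4.62, 8.16 and 5.61 in the basal GFP-positive arrays, with basal replicate 2 close to the luminal values. Its difference was 2.74 ± 0.67 (adjusted p = 0.0123), and 1.98 (adjusted p = 0.0763) without basal replicate 1. Without basal replicate 3 it was 2.48 (adjusted p = 0.0552). Lpin1, a phosphatidate phosphatase, was higher by 1.51 ± 0.31 (adjusted p = 0.00305), and Elovl5, a fatty acid elongase, lower at -1.10 ± 0.25 (adjusted p = 0.00685). Interferon response genes gave 1 higher and 1 lower call of 19, close to the shares of all genes. Ribosomal protein genes gave 1 higher call of 12.

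**Figure D5:**
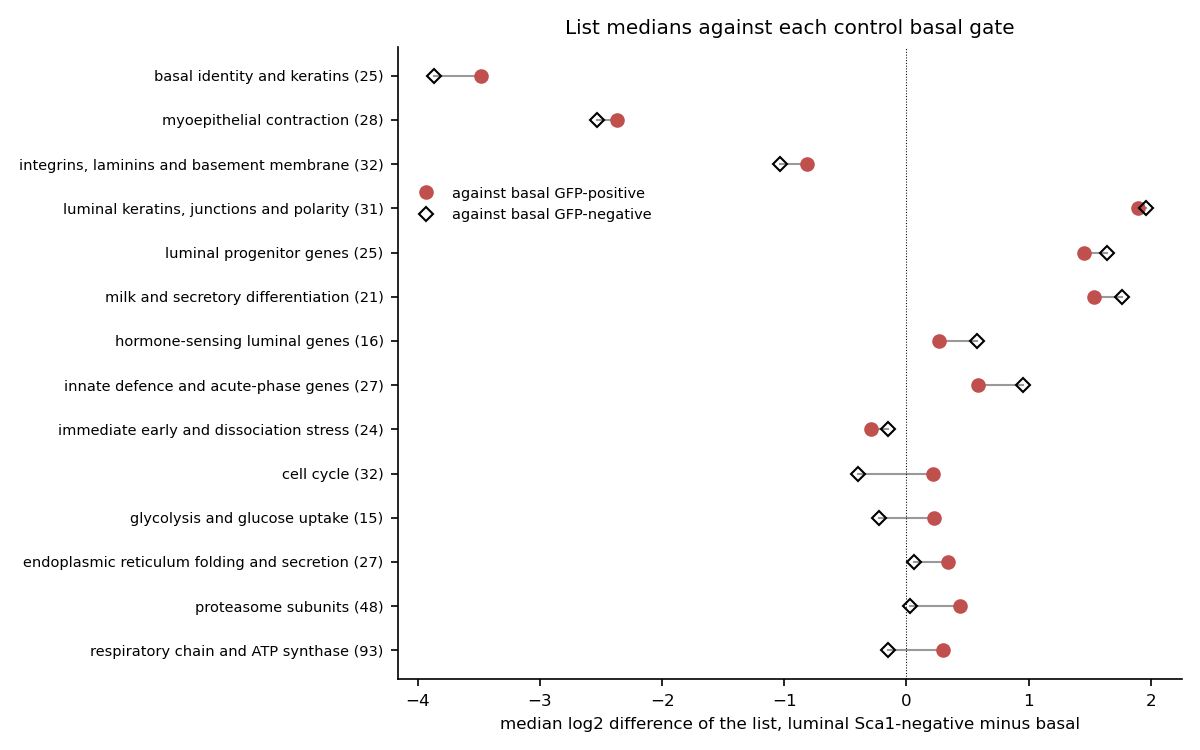
Median log2 difference of 12 gene lists and 2 gene families (number of genes in parentheses), luminal Sca1-negative minus basal GFP-positive (filled circles) and minus basal GFP-negative cells (open diamonds), control mice; both share the luminal arrays. Lineage lists lie at similar values for both comparators, while cell cycle, glycolysis and respiratory chain genes lie on opposite sides of 0.

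The luminal minus basal difference of each gene was also compared between control and mutant mice, a test of 6 control against 6 mutant arrays, in which 1.03% of genes were called. The signed difference was higher in control mice for 129 genes (0.647% of 19937) and lower for 76 (0.381%). Without control basal GFP-positive replicate 2 these counts were 224 and 178. In mutant mice 7.86% of genes were called, as 722 genes (3.62%) higher and 845 (4.24%) lower in luminal Sca1-negative than in basal GFP-positive cells. Luminal cells were GFP-negative in control and GFP-positive in mutant mice. Genotype and GFP state of the luminal cells therefore cannot be told apart in this comparison. Lgr5 had 7.29, 6.08 and 5.53 in the mutant basal GFP-positive arrays, against 7.18, 7.29 and 7.55 in the mutant basal GFP-negative arrays. Whether the GFP gate selected like basal cells in both genotypes was not tested. Luminal and basal cells below are the Sca1-negative and GFP-positive populations. Krt5 had means of 5.21 ± 0.27 in luminal and 11.60 ± 0.16 in basal cells of control mice, against 8.50 ± 0.52 in luminal and 11.92 ± 0.07 in basal cells of mutant mice (SD, n = 3). Its luminal minus basal difference was -6.38 in control and -3.42 in mutant mice, which differed by -2.96 ± 0.61 (SE, adjusted p = 0.0214). Csn3, the casein, had means of 10.97 ± 0.14 in luminal and 5.35 ± 1.57 in basal cells of control mice, against 11.07 ± 0.07 in luminal and 10.98 ± 0.04 in basal cells of mutant mice. The Csn3 difference was 5.63 in control and 0.09 in mutant mice, apart by 5.53 ± 0.72 (adjusted p = 0.000340). Between the genotypes the luminal mean of Krt5 and the basal mean of Csn3 were farther apart than the basal mean of Krt5 and the luminal mean of Csn3, a description that was not tested.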

How the data were processed

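Affymetrix mouse Gene 1.0 ST arrays were used, and the authors deposited 1 log2 value for each probe set and array. The scale was taken from the values (2.59 to 13.54). The submitters' processing notes name affy; its version, background correction and normalization are not given in the sources used here.

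Of 34760 probe sets, 21640 had 1 gene symbol, 1321 several and 11799 none. Those with 1 symbol gave 19937 genes, using the brightest probe set over 24 arrays for 954 genes with several. RefSeq (GRCm38.p6) matched 21553 of the 21640.

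The limma fit (3.58.1, R 4.3.3) gave each of 8 groups a mean over all 24 arrays, with 16 residual degrees of freedom, moderated errors and Benjamini-Hochberg adjustment over all genes, two-sided. Replicates are pools from separate sortings, and the number of arrays limits precision. The steps were tested on simulated data.

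The members and the 29 gene lists (627 genes, 585 measured, 25 in several lists) were chosen with earlier results of these data known. Named genes are the 12 called genes each way with the largest differences and non-overlapping arrays, up to 4 called genes each way per list with the smallest p, and a fixed set of markers. Cldn4, Cldn7, Krt7, Muc1, Mfge8, Aldh1a3, Trf, Plin2, Tlr4, S100a8, Mylk, Tpm2, Egr1, Fos, Igf1r, Dkk3, Wif1, Lgr6, Itga6, Itgb1, Lif, Tnf, Apod and Bgn, and the uncalled Wap, Glycam1, Notch4, Dll3 and Dll4, as well as Cnn2 for its sequence, were chosen after their values were seen. Ly6a and Prlr could not be read. The family genes in the last part were likewise chosen after their values were seen. Alternatives covered array weights, the 6 or 12 compared arrays alone, dim genes, probe set averaging, quantile normalization, a replicate block, a minimum fold and leaving out each array.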

Additional observations from a re-analysis of the deposited data

Results flagged for a closer look

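For 23 named genes the luminal minus basal log2 difference itself differed between control and mutant mice in the limma fit (adjusted p under 0.05), where 1.03% of all 19937 genes did so. Values are control minus mutant. Positive values were found for Dcn (7.59), Wfdc18 (5.80), Csn3 (5.53), Ehf (4.82), Cxcl2 (2.96), Mfge8 (2.75), Apod (2.41), Jag1 (2.39) and Igfbp2 (2.03). Negative values were found for Lgr5 (-3.77), Sparc (-3.23), Cxcl14 (-3.14), Krt5 (-2.96), Krt14 (-2.67), Scn7a (-2.50), Ltbp2 (-2.34), Slpi (-2.19), Il17b (-2.14), Vim (-2.06), Col14a1 (-2.003), Nr4a1 (-1.93), Tagln (-1.51) and Btg2 (-1.04).

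The levels behind these values differed from gene to gene. Ehf had luminal means of 11.03 in control and 10.91 in mutant mice, but basal GFP-positive means of 5.29 ± 0.42 in control and 9.99 ± 0.23 in mutant mice (SD, n = 3). Wfdc18 likewise had basal GFP-positive means of 5.79 ± 1.65 in control and 11.80 ± 0.46 in mutant mice. For these genes, as for Csn3 and Mfge8, the mutant basal GFP-positive cells stood near the luminal level. In the mutant basal GFP-negative arrays Ehf had 6.59, 6.69 and 6.05, Wfdc18 9.25, 10.14 and 11.14, and Csn3 8.88, 9.82 and 10.14. Krt14 had luminal means of 6.50 ± 0.36 in control and 8.96 ± 0.25 in mutant mice, and Sparc of 5.11 ± 0.54 in control and 8.74 ± 0.42 in mutant mice. Their basal GFP-positive means differed by less than 1 between genotypes. Scn7a was dim in luminal cells of both genotypes. It had basal GFP-positive means of 10.64 ± 0.13 in control and 8.07 ± 0.28 in mutant mice. Dcn changed direction, at 3.20 in control and -4.39 (adjusted p = 0.000265) in mutant mice. Lgr5 had basal GFP-positive means of 9.47 ± 0.46 in control and 6.30 ± 0.90 in mutant mice (SD, n = 3 each). As GFP reports Lgr5 in control mice and was part of the gate, the Lgr5 values are a description only.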

How the results depend on the processing

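The count of 1994 genes against basal GFP-positive cells was 1570 to 2106 under array weights, dim genes left out, probe sets averaged and quantile normalization, 765 in a fit of the 6 compared arrays alone and 329 in a test against a 2-fold null. Leaving out 1 array gave 1450 to 2760. The 1960 genes against basal GFP-negative cells (these alternatives were chosen after seeing the data) became 1045 with the compared arrays alone and 1469 to 1744 with 1 array left out. The 205 genes differing between control and mutant mice became 141 to 402 with 1 array left out, the 402 without control basal GFP-positive replicate 2. Same-numbered replicates did not deviate together (correlations of 0.062, 0.054 and -0.027), and a replicate block gave 2040, 1992 and 211 calls. Of 160 named genes 150 were called, and 105 of these were called under all 13 alternatives other than the 2-fold null. The other 45 lost the call at least once, 41 of them with the compared arrays alone and 17 with basal GFP-negative cells as comparator. Among those 41 were Foxa1 (adjusted p = 0.106), Muc1 (0.0850), Ntn1 (0.0810), Igf1r (0.0909), Klf6 (0.0796) and Elovl5 (0.0978) in that limma fit. No called gene changed sign. Uncalled genes that did are given as log2 differences. Pik3ca was at -0.0635 under quantile normalization, -0.6839 against basal GFP-negative cells and -0.0753 to 0.1793 with 1 array left out. Ptprc was at 0.0154 under quantile normalization, 0.0119 against basal GFP-negative cells and -0.1247 to 0.0053 with 1 array left out. Gata3 was at -0.0053 under quantile normalization and -0.2477 to 0.3158 with 1 array left out. Mki67 was at -0.45 against basal GFP-negative cells, and Pecam1 at -0.0302 to 0.4090 with 1 array left out. The cause of these changes was not tested. No detection calls were used here, so signal over background was not measured, and 3 arrays a group limit the precision.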

Other observations

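Gene families, some sharing genes with the lists, were chosen after their values were seen, and their counts are descriptions without a test. Among all genes 5.30% were higher and 4.70% lower, and 4.93% and 4.90% with the basal GFP-negative arrays. Of 44 collagen genes 17 were lower in luminal Sca1-negative than in basal GFP-positive cells and 1 was higher. The lower ones held the basement membrane chains Col4a1 (-1.44), Col4a2 (-1.93) and Col4a6 (-1.64) as well as Col12a1 (-2.74), a fibril-associated collagen. Col4a1 was at -2.67 against basal GFP-negative cells. The one that was higher was Col8a1, at 2.11. Among 52 keratin genes 7 were higher and 6 lower. Among them Krt4 (3.14) and Krt6a (2.50) were higher and Krt15 (-3.43) was lower. Of 48 serpins, mostly protease inhibitors, 7 were lower and 0 higher, including Serpina3n at -4.39 and Serping1, the complement C1 inhibitor, at -3.76. Serping1 was not called against basal GFP-negative cells, at -1.83 (adjusted p = 0.172). Of 21 subunits of the vacuolar proton pump 3 were higher, among them Atp6v1b1 at 3.57.

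Respiratory chain and ATP synthase genes gave 15 higher and 0 lower calls of 93, with a median difference of 0.30. Against basal GFP-negative cells they gave 1 higher and 3 lower calls and a median of -0.15. Proteasome subunits gave 10 higher and 0 lower calls of 48, with a median of 0.44, against 3 higher, 2 lower and a median of 0.03 with the basal GFP-negative arrays.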
